A study of Mus musculus with 4 samples.

Results

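Txnrd3, Camta1, Chd1, Greb1l, Lrrc3b, Map3k10 and Pnliprp2 are 7 mouse genes whose annotated ends carried called chromatin loops before, but not after, an ovulatory dose of gonadotropin. They were chosen by the loop lists described here, out of 21627 protein-coding genes on chromosomes 1 to 19 and X. Each had at least 2 loops with an anchor within 2.5 kb of a gene end in both lists made before the dose, and 0 in both lists made after it. Every PMSG against hCG value of these genes below therefore describes the choice and carries no test. All called loops with an anchor within 10 kb of a gene body were then collected. These were 22 of 8305 and 20 of 6533 loops in the lists before the dose, and 4 of 7664 and 6 of 7935 loops after it.

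The loops come from Micro-C, in which chromatin is cut with micrococcal nuclease and joined ends are sequenced, so that frequent contacts between distant sites appear as bright pixels of a contact map. The cells were granulosa cells, collected by puncturing the ovaries of 21-day-old mice. Every mouse was injected with 5 IU of eCG (equine chorionic gonadotropin, the PMSG of the group name), for 46 h by the sample characteristics and 44 h by the treatment protocol. The PMSG group had no further injection (0 h), and the hCG group was killed 6 h after 5 IU of hCG, human chorionic gonadotropin. Each group had 2 libraries with 1 loop list each. No strain, genotype or pooling of animals is given, and the labels do not tie libraries to separate animals, so their spread may be technical.

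Loops called in such maps commonly join sites bound by the zinc-finger protein CTCF, where the ring-shaped cohesin complex stops as it extrudes chromatin, or they join promoters with distal elements. eCG acts like follicle-stimulating hormone and drives follicle growth, and hCG acts on the receptor of luteinizing hormone in granulosa cells, which raises cyclic AMP and starts ovulation and luteinization. The 7 genes have no common function: they encode a selenoprotein reductase (Txnrd3), a calmodulin-binding transcription activator (Camta1), a chromatin remodeller (Chd1), a relative of the estrogen-induced gene Greb1 (Greb1l), a leucine-rich repeat membrane protein (Lrrc3b), a mixed-lineage kinase (Map3k10) and a lipase relative (Pnliprp2).

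Promoter sequences are shown for the 4 genes with a loop anchor over or beside the annotated start, because the promoter lies at the looped end there. They run 5′ to 3′ on the gene's strand, from 250 bases before the start to 50 bases after it, and come from RefSeq on GRCm38.p6. The regions are chr6:89643738-89644037 (plus strand) for Txnrd3, chr4:151861719-151862018 (minus) for Camta1, chr7:27674532-27674831 (minus) for Map3k10 and chr19:58759473-58759772 (plus) for Pnliprp2. Capitals mark CCCTC, the core letters of the CTCF motif, and TGACG, the core of the cyclic AMP response element, each searched on both strands (GAGGG and CGTCA on the other).
Txnrd3: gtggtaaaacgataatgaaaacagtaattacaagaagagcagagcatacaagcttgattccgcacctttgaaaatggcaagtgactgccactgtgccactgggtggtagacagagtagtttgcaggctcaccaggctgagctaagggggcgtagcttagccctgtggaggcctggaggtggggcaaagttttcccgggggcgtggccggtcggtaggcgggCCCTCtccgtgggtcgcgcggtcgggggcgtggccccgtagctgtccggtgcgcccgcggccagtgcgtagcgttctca
Camta1: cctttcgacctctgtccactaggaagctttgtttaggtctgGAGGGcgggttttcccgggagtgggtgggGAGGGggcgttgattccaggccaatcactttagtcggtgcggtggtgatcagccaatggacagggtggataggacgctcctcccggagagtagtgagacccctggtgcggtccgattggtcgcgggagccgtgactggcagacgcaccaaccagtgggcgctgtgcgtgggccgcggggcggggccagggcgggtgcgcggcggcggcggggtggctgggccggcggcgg
Map3k10: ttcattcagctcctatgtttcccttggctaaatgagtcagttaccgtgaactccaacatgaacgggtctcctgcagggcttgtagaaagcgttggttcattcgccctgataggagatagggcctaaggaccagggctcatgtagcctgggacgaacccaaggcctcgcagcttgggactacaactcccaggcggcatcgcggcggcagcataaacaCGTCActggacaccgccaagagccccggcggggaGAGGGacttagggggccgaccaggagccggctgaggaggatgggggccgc
Pnliprp2: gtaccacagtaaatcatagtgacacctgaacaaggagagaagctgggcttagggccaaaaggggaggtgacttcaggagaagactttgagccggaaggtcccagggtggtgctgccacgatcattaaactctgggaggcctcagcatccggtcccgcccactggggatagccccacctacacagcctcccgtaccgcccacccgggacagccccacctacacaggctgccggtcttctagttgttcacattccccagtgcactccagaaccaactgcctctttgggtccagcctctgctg

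The Txnrd3 window held 1 CCCTC match, 29 bases before the start. Camta1 held 2 on the other strand, at 209 and 180 bases before the start, and the one at 209 overlapped a GGGCGG match (a GC box) at 207. Map3k10 held 1 CCCTC match at the start itself and 1 TGACG match 34 bases before it. Pnliprp2 held neither. Of all 32851 promoters in the table, 66.0% held CCCTC and 20.8% held TGACG, so a match of the first kind is the common state and says nothing particular of these genes. The GC content of the 5 member promoters in the table was 57% to 68.3%, against a mean of 53.8% over all promoters. The windows cover 300 bases and the anchors 5 to 25 kb, so these letters describe the promoters and not the rest of the anchors.

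The sequencing depth of the libraries was not used here. Summed over its called pixels, PMSG replicate 1 held 393852 contacts and PMSG replicate 2 held 272470, while hCG replicates 1 and 2 held 311016 and 349717. Bins of 25 kb gave 25.2% and 34.9% of all loops before hCG, and 29.7% and 27.8% after it. Where a list lacks a loop, the caller's thresholds were not met at that site, and the contacts there were not analysed here. Of 7 granulosa markers, 4, 2, 4 and 5 had a loop at an end in PMSG replicates 1 and 2 and hCG replicates 1 and 2, with Cyp19a1 and Nr5a1 at 0 in every list. For 5 theca and stroma markers these numbers were 5, 4, 4 and 5, for 3 endothelial markers 1 in every list, for 2 immune markers 0, 1, 0 and 0, and for 3 oocyte markers 1 in every list. For all 21627 genes they were 5888, 4690, 5752 and 5833. Loops do not measure expression, so these counts do not settle which cells were present, and their part in the results was not tested.

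The chosen genes had few loops each. Loops at their ends numbered 15 and 14 in the PMSG lists, a mean of 14.5 ± 0.707 (SD, n = 2), and 0 in each hCG list. Txnrd3 had 3 and 2 of these, and the other 6 genes had 2 in each PMSG list, which is the least the choice allows. Any list placed a loop at an end of 9136 genes, and 13 of these (0.142%) met the same condition, these 7 among them. Within 10 kb of the gene bodies there were 22 and 20 loops in the PMSG lists (21 ± 1.41, SD, n = 2) and 4 and 6 in the hCG lists (5 ± 1.41, SD, n = 2). Txnrd3, Lrrc3b, Map3k10 and Pnliprp2 had 0 loops in this window in both hCG lists. In the hCG lists Camta1 had 1 and 1, Chd1 1 and 3, and Greb1l 2 and 2, so "looped only before hCG" is true of the ends of these 3 genes and not of their bodies. Of these hCG loops, 4 of 4 and 5 of 6 matched a PMSG loop within 20 kb.

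**Figure D1:**
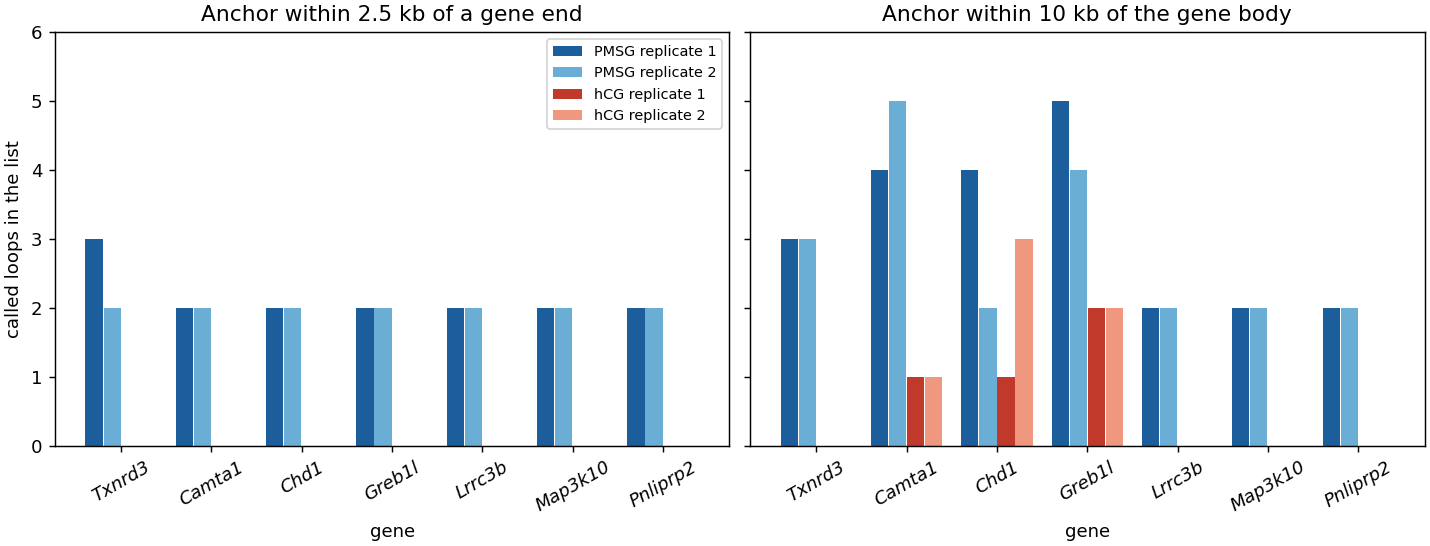
Called loops per gene in the 4 lists, with an anchor within 2.5 kb of a gene end (left) and within 10 kb of the gene body (right); each bar is 1 library. At the gene ends all hCG bars are at 0, while in the wider window Camta1, Chd1 and Greb1l have hCG loops.

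The condition rests on settings of the lists. With loops of 5 and 10 kb bins alone it was met by 1 of the 7 genes, Greb1l. With all 4 q-values of a loop at or under 0.01 it was met by Txnrd3, Greb1l, Lrrc3b and Map3k10, and with lists cut to equal length by Chd1, Greb1l and Lrrc3b. With the gene end required inside the anchor it was met by Txnrd3, Greb1l and Lrrc3b, and with the end allowed within 5 kb or 10 kb of the anchor by all 7. Greb1l met it under each of these settings. With 3 or more loops required in each PMSG list, 0 of the 7 met it.

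Camta1 encodes a large transcription factor that binds calmodulin and is best known from the nervous system. It spans 802 kb on the minus strand of chromosome 4 (151059523 to 151861768, mm10), and its loops at the 5′ end all reached back into the gene. PMSG replicate 1 had loops of 375 kb and 250 kb from the anchor at the start, with 65 contacts against 28.3 expected and 31 against 7.71, which are ratios of 2.30 and 4.02. PMSG replicate 2 had loops of 250 kb and 80 kb, with 53 contacts against 19.3 and 39 against 9.71, which are ratios of 2.75 and 4.02. Expected contacts here are those of the local donut-shaped surround of a pixel, in the same library. Only the 250 kb loop, with its inner anchor at 151600001, was in both PMSG lists. The nearest hCG loops lay 210 to 497.5 kb away from the loops at the start, measured as the larger of the 2 anchor distances.

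At the 3′ part of Camta1 a short loop was in all 4 lists. Its anchors lay at 151070001 to 151080000 and at 151135001 to 151145000. It had 45 and 19 contacts in the PMSG lists against 6.30 and 2.91 expected, and 31 and 29 in the hCG lists against 2.62 and 3.64. The ratios were 7.14, 6.53, 11.8 and 7.97, with exact Poisson 95% intervals of 5.21 to 9.56, 3.93 to 10.2, 8.03 to 16.8 and 5.34 to 11.5. These intervals overlap and cover counting error only, since contacts can include PCR copies. This loop was the single hCG loop in the Camta1 window in each list. Another loop, from 150950001 to 150975000 or a bin inside it to the same 3′ part of the gene, was in both PMSG lists at ratios of 3.58 and 3.48. A loop of 125 kb inside the gene, with 57 contacts against 23.7, was in PMSG replicate 2 alone.

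Chd1 encodes a remodeller that uses ATP to space nucleosomes and binds the methylated histone tail at active promoters. It lies on chromosome 17 at 15704967 to 15772612, and its strand is not in the promoter table, so its ends are called lower and upper. The lower end had a loop of 125 kb in the same 25 kb bins of both PMSG lists (15575001 to 15600000 with 15700001 to 15725000), with 113 contacts against 58.2 expected and 117 against 45.4. Its ratios were 1.94, the lowest of the loops at gene ends, and 2.58. In hCG replicate 2 a loop of 140 kb with 10 kb bins joined 15580001 to 15590000 with 15720001 to 15730000, at 42 contacts against 10.8. That pixel lay 12.5 kb from the PMSG one, and its gene-side anchor overlapped the PMSG anchor while missing the gene end by more than 2.5 kb. The hCG loop is therefore counted at the body of Chd1 and not at its end, and the loop was called in 25 kb bins before hCG and in 10 kb bins after it.

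The body anchor of Chd1 at 15720001 to 15730000 had further loops in both groups. A loop of 100 kb to 15620001 to 15630000 had 41 contacts against 12.3 in hCG replicate 1 and 47 against 13.2 in hCG replicate 2. PMSG replicate 1 had it in 5 kb bins with 14 contacts against 3.78, where the largest of its 4 q-values was 0.0591. A longer loop met the ends of Tbp, the TATA-binding protein, and its neighbour Pdcd2, with 25 contacts against 8.29 in hCG replicate 2 and with 98 against 39.1 in wider bins of PMSG replicate 1, where the anchor also held an end of the proteasome gene Psmb1. The upper end of Chd1 differed from this. It had a loop of 1125 kb in PMSG replicate 1 (32 contacts against 9.32) and of 1150 kb in PMSG replicate 2 (29 against 7.61). Its far anchors, at 16900001 to 16925000 and 16925001 to 16950000, held no gene end and had 0 loops in both hCG lists. By the larger of the 2 anchor distances, the nearest hCG loop was 550 kb away. On the gene side, though, hCG replicate 1 had a loop from the bin beside the PMSG anchor, 15800001 to 15825000. This hCG loop reached 16325001 to 16350000 over 525 kb, with 54 contacts against 16.3, and its near anchor lay 27.4 kb from Chd1.

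Greb1l is a relative of Greb1, a cofactor of the estrogen receptor, and is known for its part in kidney and inner ear development. It lies on chromosome 18 at 10324933 to 10562945, over 238 kb, and its strand is not in the promoter table. Its loops fanned out from the anchor at the lower end, 10320001 to 10330000, into the gene body. PMSG replicate 1 had 58 contacts against 23.0 at 90 kb and 61 against 20.5 at 150 kb. PMSG replicate 2 had 42 contacts against 14.9 at 100 kb and 34 against 11.7 at 170 kb. The ratios of these 4 loops, 2.52, 2.98, 2.82 and 2.90, lay close together, and all were called in 10 kb bins.

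After hCG the anchors at the lower part of Greb1l lay on either side of the gene end. In hCG replicate 1 a loop of 80 kb began inside the gene at 10340001 to 10350000, with 51 contacts against 20.3, a ratio of 2.51. It lay 20 kb from the nearest PMSG loop, at the limit of what counts as a match here. In hCG replicate 2 a loop of 120 kb began outside the gene at 10295001 to 10300000, with 23 contacts against 4.73, a ratio of 4.87. A loop of 200 to 210 kb from the outer anchor, which began at 10290001 in every list, reached the body of Greb1l near 10500001 in all 4 lists. Its ratios were 3.25 and 3.90 in the PMSG lists and 5.05 and 4.40 in the hCG lists. The 3 PMSG loops with both anchors inside the gene and away from its ends, of 50 kb, 50 kb and 70 kb, had ratios of 2.20, 2.13 and 2.77.

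Txnrd3 encodes a thioredoxin reductase with a glutaredoxin domain, a selenoprotein found mostly in testis. It lies on the plus strand of chromosome 6 at 89643988 to 89675529, over 31.5 kb. Its 5′ end had a loop of 700 kb in the same 25 kb bins of both PMSG lists (88925001 to 88950000 with 89625001 to 89650000), with 100 contacts against 31.9 expected and 56 against 14.5. The ratios were 3.13 (95% interval 2.55 to 3.81) and 3.87 (2.92 to 5.03). Its 3′ end reached the other way. A loop of 760 kb in PMSG replicate 1 and of 750 kb in PMSG replicate 2 met the end of the cilium gene Cfap100, with 19 contacts against 3.89 and 35 against 6.40. A loop to the end of Chst13, a chondroitin sulfotransferase, spanned 650 kb in PMSG replicate 1 with 48 contacts against 14.0, in a bin that also held an end of the histidine-catabolism gene Uroc1. In PMSG replicate 2 this loop had 19 contacts against 2.61 at 640 kb, in a 10 kb bin that lay more than 2.5 kb from the end of Txnrd3.

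Both hCG lists had a loop that ended short of Txnrd3. In hCG replicate 2 the same far bin, 88925001 to 88950000, met 89550001 to 89575000, inside the neighbouring mitochondrial gene Chchd6 and 69.0 kb from Txnrd3, with 65 contacts against 29.3. In hCG replicate 1 the far anchor was 88975001 to 89000000, with 53 contacts against 24.2. The latter pixel was also called in PMSG replicate 1, with 90 contacts against 48.8, so loops with this anchor in Chchd6 were called in both groups. The ratios of these loops, 2.22, 2.19 and 1.84, were below those of the Txnrd3 loops, and the 5′ loop of Txnrd3 lay 75 kb from the nearest of them. The 3′ loops of Txnrd3 had no hCG loop nearer than 747.5 kb at both anchors. Within 10 kb of the partner bin at Cfap100, 90425001 to 90450000, the hCG lists had 1 and 2 loops to other sites. Within 10 kb of the bin at Chst13 and Uroc1, 90325001 to 90350000, they had 0.

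Pnliprp2 encodes a relative of pancreatic lipase that also cleaves galactolipids, and lies beside the lipase genes Pnliprp1 and Pnlip on chromosome 19. It covers 58759723 to 58777534 on the plus strand. Its 5′ end had a loop of 140 kb in both PMSG lists, which PMSG replicate 1 gave in 10 kb bins with 45 contacts against 13.7 and PMSG replicate 2 in 5 kb bins with 15 against 2.14. The ratios were 3.29 (95% interval 2.40 to 4.41) and 7.0 (3.92 to 11.5). A second partner was the end of Kcnk18, a potassium channel gene, at 59200001 to 59225000. It was reached over 450 kb from the 5′ end in PMSG replicate 2, with 47 contacts against 15.5. In PMSG replicate 1 it was reached over 425 kb from a bin at the 3′ end that also held ends of 1700019N19Rik and Hspa12a, with 73 contacts against 29.6.

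The site that Pnliprp2 met at 58900001 to 58905000 had a loop to another anchor in all 4 lists. So did bins outside its Kcnk18 partner bin but within 10 kb of it. The pixel joining 58805001 to 58810000, inside Hspa12a, with 58900001 to 58905000 had 30 and 23 contacts in the PMSG lists against 4.65 and 2.52 expected. In the hCG lists it had 15 and 20 contacts against 1.82 and 2.61. A loop from 58910001 to 58915000 to the bins at 59190001 to 59200000 had 25 and 19 contacts in the PMSG lists against 3.94 and 2.15, and 15 and 24 in the hCG lists against 1.80 and 2.31. Ratios of these neighbouring loops were 6.35 to 9.14 in the PMSG lists and 7.65 to 10.4 in the hCG lists. The loops that reached on to Pnliprp2 were in the PMSG lists alone, 42.5 to 150 kb from the nearest hCG loop. Farther from the gene, a loop from 57990001 to 58000000 to the bins at 58460001 to 58480000, with 24 contacts against 6.90 and 20 against 3.86, was also in both PMSG lists without an hCG match. The reverse was seen outside the Camta1 window. There a loop joining 150800001 to 150810000 with 150850001 to 150860000 was in both hCG lists without a PMSG match. It had 45 contacts against 15.4 and 55 against 19.7.

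Map3k10 encodes a mixed-lineage kinase that activates the JNK stress cascade. It lies on the minus strand of chromosome 7 at 27656375 to 27674630, with other genes at either end: an end of Ttc9b lies 0.168 kb from one end and an end of Zfp607b, a zinc-finger gene, 0.031 kb from the other. No anchor of its loops overlapped Map3k10 itself. The anchor beside its 3′ end overlapped Ttc9b, and the anchors beyond its 5′ end lay inside Zfp607b. The shortest loop at any of the 7 genes, of 35 kb, was in both PMSG lists. It joined 27650001 to 27655000, beside the 3′ end of Map3k10, with 27685001 to 27690000, with 25 contacts against 7.24 and 17 against 2.62. The ratios were 3.45 (95% interval 2.23 to 5.10) and 6.49 (3.78 to 10.4). The 5′ end, 420 bases from a 25 kb anchor, had different partners in the 2 PMSG lists. In PMSG replicate 1 it met the ends of Ltbp4, which encodes a binding protein of latent TGF-beta, and Shkbp1 over 350 kb, with 56 contacts against 23.8. In PMSG replicate 2 it met the ends of the kinase gene Akt2 and of 2310022A10Rik over 100 kb, with 68 contacts against 33.2. No hCG loop came within 266 kb of Map3k10, and the nearest, between 27330001 and 27390000, was in PMSG replicate 1 as well, at 52 contacts against 21.8.

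Lrrc3b encodes a small membrane protein with leucine-rich repeats that is often silenced in tumours. It lies on the minus strand of chromosome 14 at 15357515 to 15438987, with no other gene of the table within 100 kb. All its loops left from the 3′ end. The loop of 530 kb to 15880001 to 15890000 was in the same 10 kb bins of both PMSG lists, with 23 contacts against 5.90 and 27 against 4.18. The ratios were 3.90 (95% interval 2.47 to 5.85) and 6.46 (4.26 to 9.40). Longer loops in 25 kb bins differed between the libraries. PMSG replicate 1 had one of 1025 kb with 37 contacts against 12.1, and PMSG replicate 2 one of 825 kb with 52 against 17.5. No far anchor held a gene end. Within 10 kb of the far anchor of the 530 kb loop there were 0 hCG loops. Within 10 kb of that of the 1025 kb loop there was 1 in each hCG list, to other sites. The nearest hCG loop lay 882.5 to 890 kb from the loops of Lrrc3b, the farthest among the 7 genes.

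**Figure D2:**
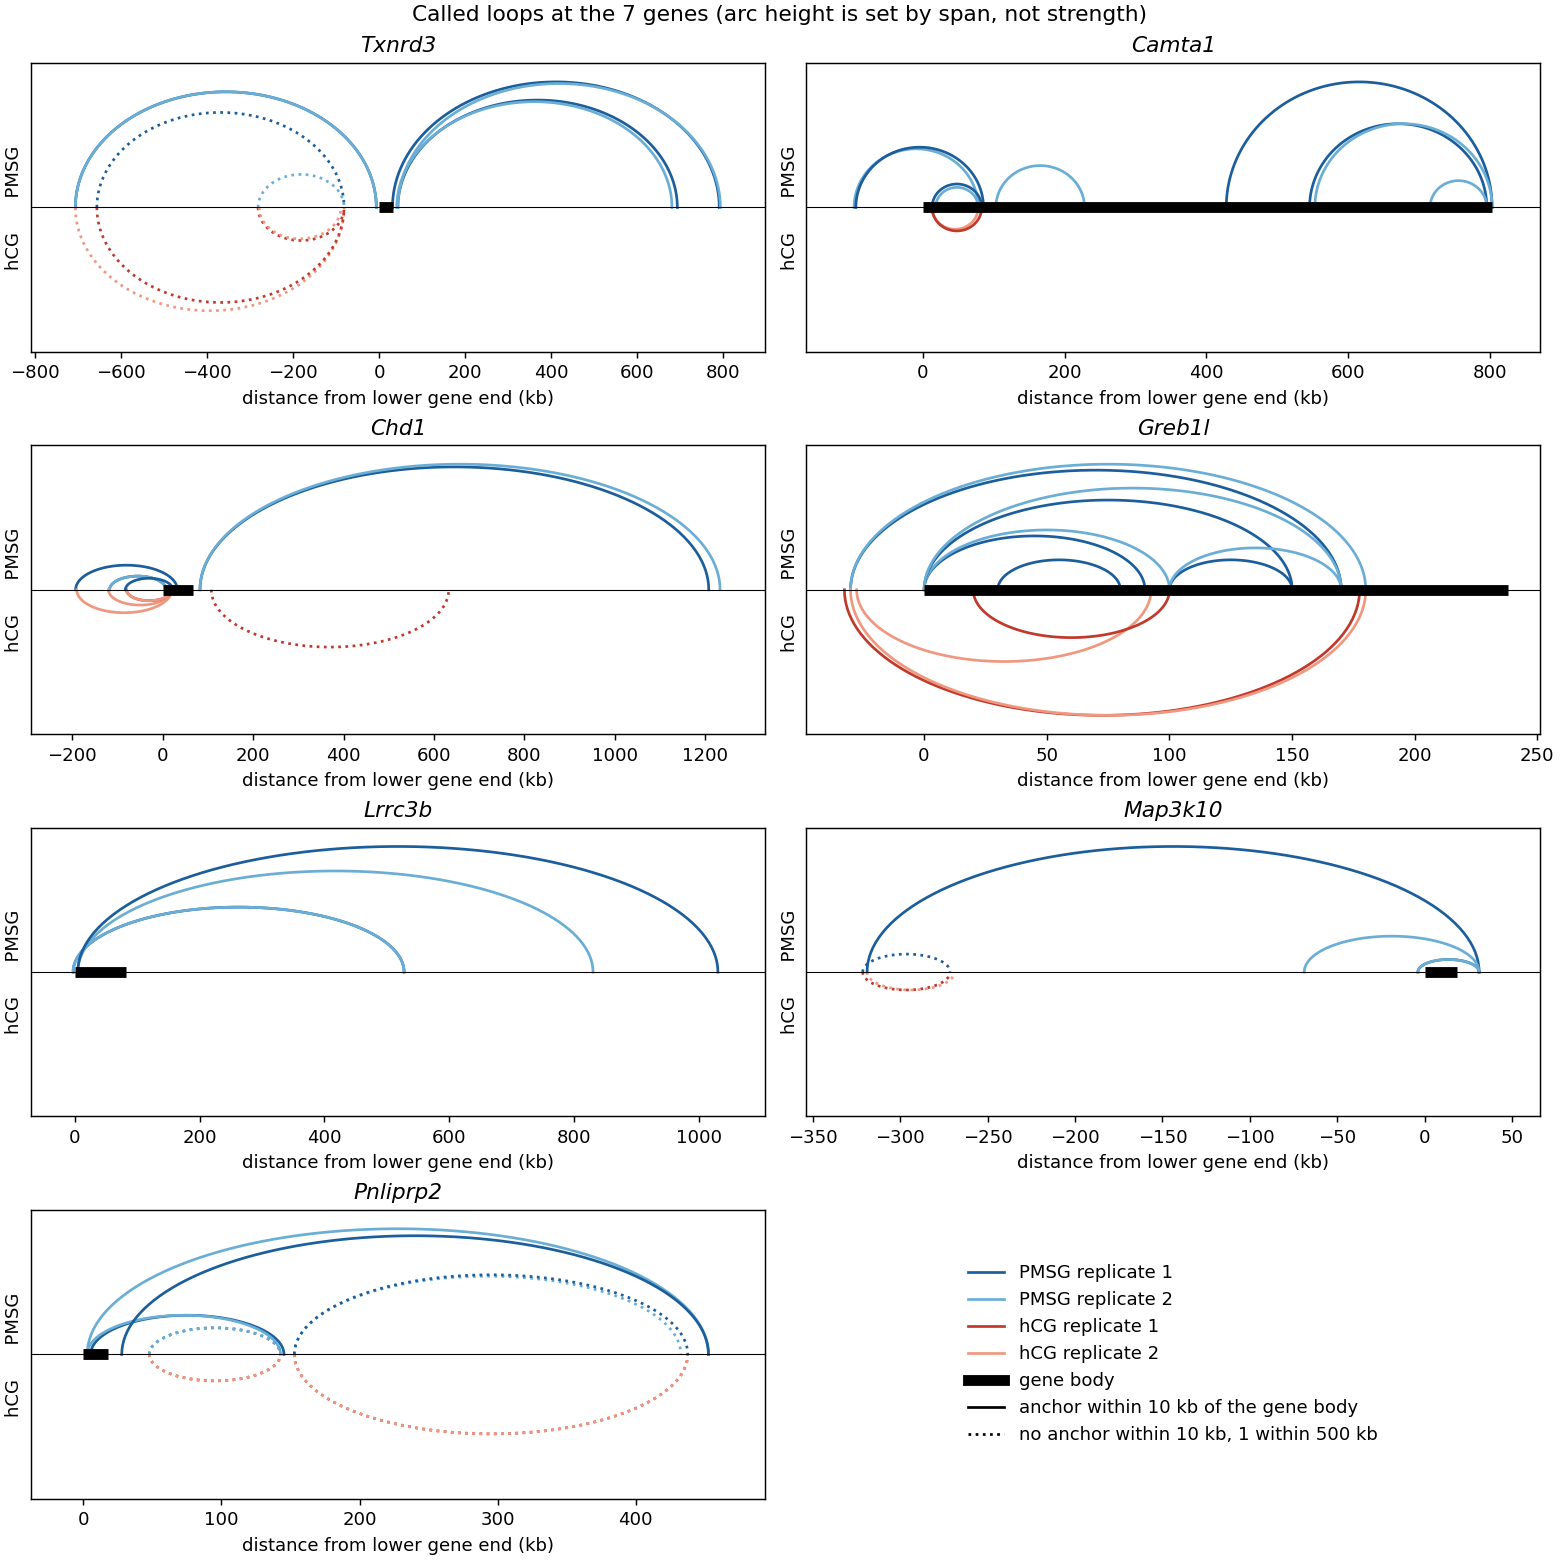
Called loops at each gene drawn as arcs between anchor midpoints, against the distance in kb from the gene's lower end, with PMSG lists above and hCG lists below the line. Solid arcs have an anchor within 10 kb of the gene body, and dotted arcs have none there but 1 within 500 kb and lie wholly in the panel. The dotted arcs beside Pnliprp2 appear in all 4 lists, while the solid arcs of Txnrd3, Lrrc3b, Map3k10 and Pnliprp2 lie above the line alone.

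The 29 PMSG loops at gene ends spanned 35 to 1150 kb, with a median of 350 kb. By library the median was 375 and 210 kb, against 175 and 195 kb over the whole PMSG lists. The loops of 25 kb bins were the long ones, with medians of 537.5 and 575 kb at the 7 genes and 325 and 275 kb over the lists. These bins held 8 of 15 and 8 of 14 loops at the gene ends. Observed contacts were 15 to 117 with a median of 45, and ratios were 1.94 to 7.0. Median ratios at the gene ends were 3.13 and 3.42, and over the whole lists 3.68 and 4.16. Of the 29 loops, 19 were single pixels with no neighbours merged into them, and 24 had all 4 q-values at or under 0.01. The latter were 12 of 15 and 12 of 14 by library, near the 82.8% and 86.4% of all loops in these lists. Within bins of 1 size the differences from the lists ran both ways. In 25 kb bins the median ratios at the gene ends were 2.76 and 3.01, above the 2.56 and 2.71 of the lists. In 10 kb bins they were 3.60 and 3.46, against 3.43 and 4.32, and the spans 200 and 135 kb, against 160 and 170 kb. The 3 loops of 5 kb bins, 1 in PMSG replicate 1 and 2 in PMSG replicate 2, had median spans of 35 and 87.5 kb, against 120 and 140 kb. Their median ratios were 3.45 and 6.74, below the 5.48 and 7.56 of the lists.

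**Figure D3:**
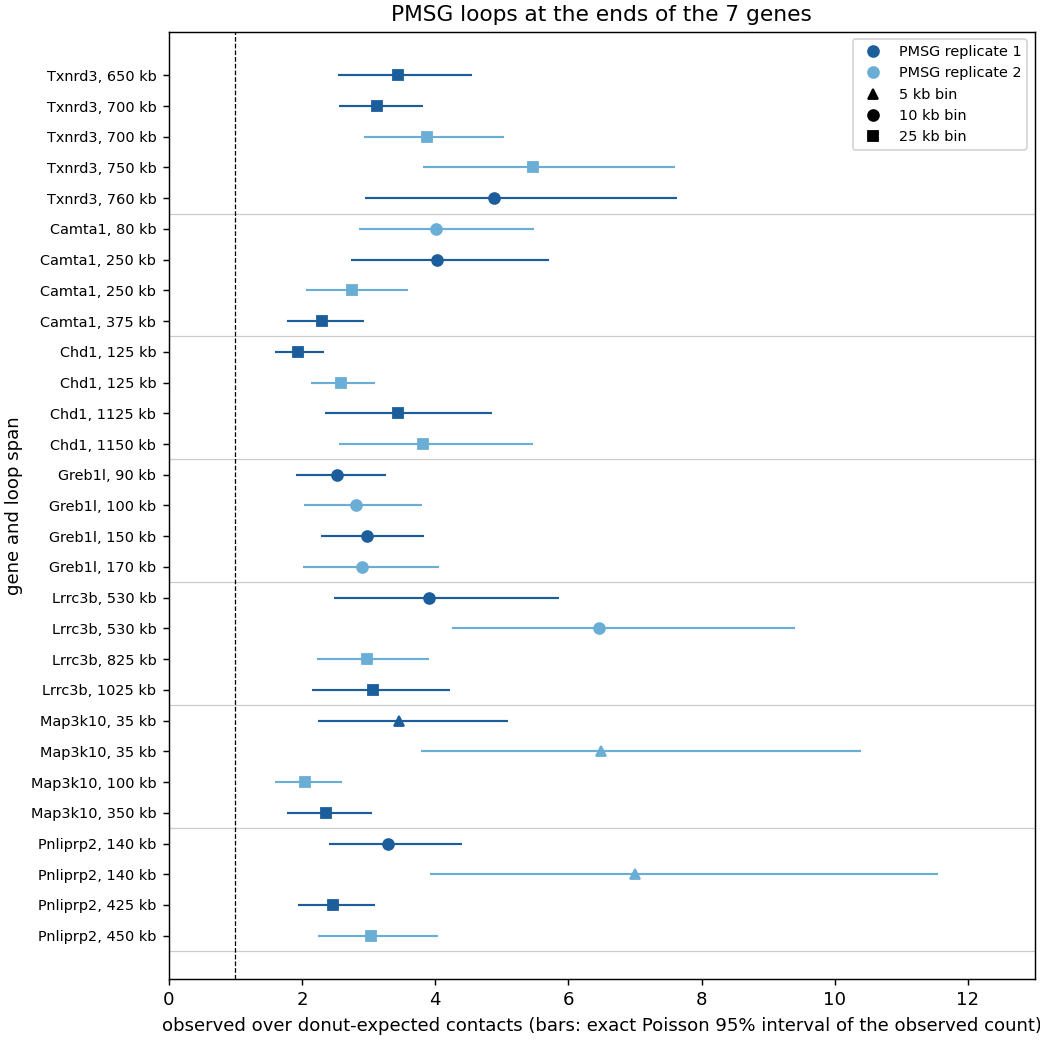
Observed over donut-expected contacts of the 29 PMSG loops at the ends of the 7 genes, by gene and span, with exact Poisson 95% intervals that cover counting error only; the dashed line at 1 is the local expectation. Ratios run from 1.94 at Chd1 to 7.0 at Pnliprp2, and the 2 widest intervals belong to loops called in 5 kb bins, at Pnliprp2 and Map3k10.

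The PMSG libraries did not share all of these loops either. Of the loops at gene ends, 10 of 15 in replicate 1 and 9 of 14 in replicate 2 matched one of the other list with both anchor midpoints within 20 kb. Exactly the same pixel was called in both lists at Txnrd3, Chd1, Lrrc3b and Map3k10, 1 each. A match in an hCG list at this distance was found for 4 of the 29, which were the lower-end loops of Chd1 and the shorter loops of Greb1l, and at 50 kb for 8. The median distance to the nearest hCG loop was 300 kb, from 12.5 kb at Chd1 to 890 kb at Lrrc3b. Over all 42 PMSG loops in the 10 kb window, 11 had an hCG match within 20 kb, all at Camta1, Chd1 and Greb1l. This number was 5 with matching within 10 kb and 6 with overlapping anchors required.

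**Figure D4:**
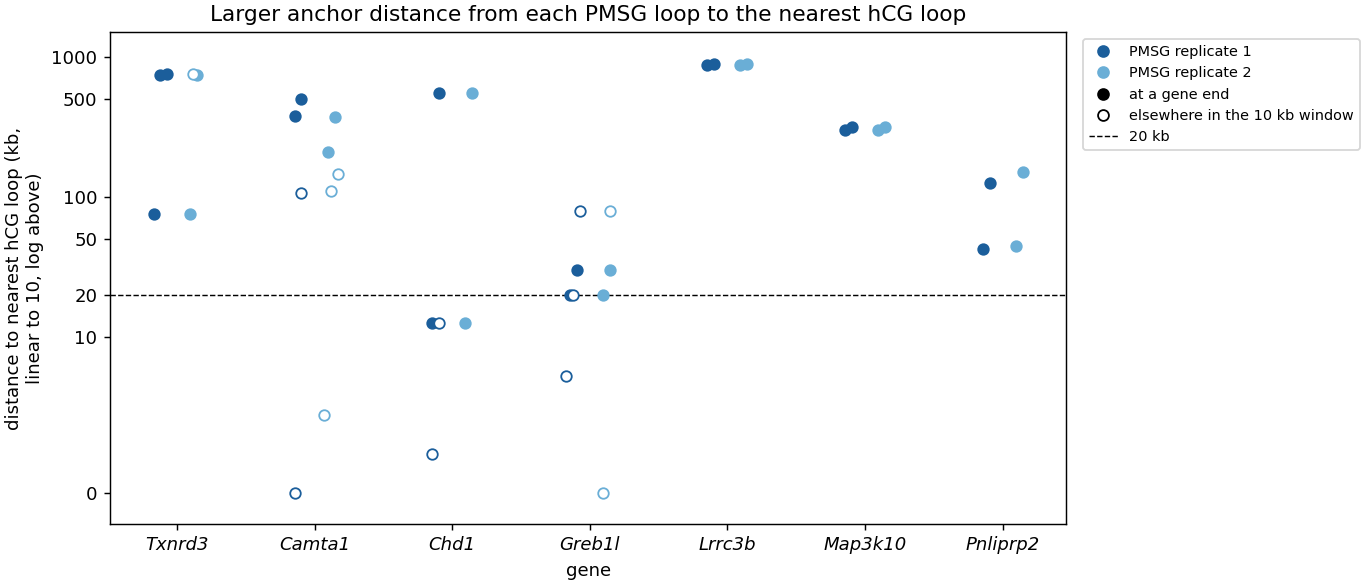
Distance in kb from each PMSG loop in the 10 kb window to the nearest hCG loop, taken as the larger of the distances between anchor midpoints, on an axis that is linear up to 10 kb and logarithmic above. Points on or under the dashed line at 20 kb count as matched and belong to Camta1, Chd1 and Greb1l; Lrrc3b and Map3k10 have none nearer than 300 kb.

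The surroundings of the 7 genes were looped in both groups. Loops with an anchor within 500 kb of a gene, but none within 10 kb, numbered 24 and 18 in the PMSG lists and 24 and 23 in the hCG lists. The groups overlapped in this count, which the choice of the genes did not use. Of the 24 in PMSG replicate 1, 12 had a match within 20 kb in each of the other lists, 4 of them around Greb1l, 4 around Pnliprp2 and 2 around Camta1. No called loop enclosed any of the 7 genes with both anchors more than 10 kb away from the gene body, in any list. The loops of Map3k10 itself do span that gene, from anchors nearer than this on at least 1 side. Of the 9136 genes with a loop at an end, 5251 (57.5%) likewise had no enclosing loop with anchors that far away.

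Outside the 7, the genes with at least 2 loops at their ends in both PMSG lists and 0 in both hCG lists were Bmp2, Khdc1a, Cd34, Orc4, Dmrt3 and Me2. Bmp2, a bone morphogenetic protein made by granulosa cells, had 3 and 3 loops, and the others 2 and 2. Cd34 (an endothelial and progenitor surface protein), Khdc1a, Orc4 (a subunit of the replication origin complex), Dmrt3 and Me2 (a mitochondrial malic enzyme) were the genes most like the members by these same counts. Their counts over the 4 lists equalled the median counts of the members, at a Euclidean distance of 0. This follows from meeting the condition with 2 loops in each PMSG list, so it is no separate result. Bmp2 and Khdc1a had 0 hCG loops within 10 kb of the gene body, while Cd34, Orc4 and Dmrt3 had 1 in each hCG list and Me2 had 3. When a library was left out, genes meeting the condition numbered 49 without PMSG replicate 1, 108 without PMSG replicate 2, 36 without hCG replicate 1 and 47 without hCG replicate 2. The reverse condition, with 2 or more in both hCG lists and 0 in both PMSG lists, was met by 18 of the 9136 genes (0.197%).

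Genes just outside the condition were more numerous than those inside it. There were 27 with at least 2 in both PMSG lists and 1 in the hCG lists together, led by Matn1 with 5, 3, 0 and 1 loops in PMSG replicates 1 and 2 and hCG replicates 1 and 2, Atp5o with 3, 3, 1 and 0, and Lhfp, Slc27a2 and Smyd2 with 5 in the PMSG lists together. Another 41 genes had 0 in both hCG lists, 1 in 1 PMSG list and at least 2 in the other. Pex3 had 3 and 1 of these, and the 40 others, Adam10, Aff2, Apba1 and Arid5a among them, had 3 in all. Each of these genes missed the condition by 1 loop in 1 list.

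Relatives of the members were counted in the same lists. Of 40 genes in 7 families, 17 and 16 had a loop at an end in the PMSG lists and 16 and 18 in the hCG lists. Of all 21627 genes, 5888 and 4690 had one in the PMSG lists and 5752 and 5833 in the hCG lists. Of the 40, 10 had one in all 4 lists and 15 in none, while of all genes 2491 (11.5%) and 12491 did. Looped in both PMSG lists and neither hCG list were 2 of the 40, Lrrc3 and Map3k13, with 1 loop in each PMSG list. Over all 21627 genes this share was 1.39%. Looped in both hCG lists alone was 1, Mapk8, a JNK kinase downstream of Map3k10, with 1 and 1, against 2.28% of all genes. Chd2 had 2 loops in every list, Greb1 had 4 and 3 in the PMSG lists and 2 and 3 in the hCG lists, and Txnrd1, the cytosolic thioredoxin reductase, had 1 and 1 and then 1 and 2. Pnlip and Pnliprp1, the neighbours of Pnliprp2, had 0 in every list.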

How the data were processed

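Loop lists of 4 Micro-C libraries were used, 1 per sample, grouped by sample title. Libraries were made with the Dovetail kit, with technical replicates within each sample, per the labels' protocols. The submitters' processing notes name BWA, Juicer and build mm10, and the lists were written by juicer_tools 1.22.01, per the file headers. For caller settings, nothing is stated in the labels or headers. Loops were called in each library separately, so depth and bin size can decide whether a loop is listed. Each deposited list gives observed contact counts, not normalized, and the expected contact signal of 4 local surrounds. The q-value of each surround, computed by the caller, is under 0.1 throughout the deposited lists. The deposited score is the number of pixels the caller merged into a loop.

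Gene positions came from RefSeq on GRCm38.p6, the assembly of mm10. Of the 7 members, 5 had a promoter in the sequence table, which also gave strand, and exons were not used here. A match needed a distance of at most 20 kb between the midpoints at each of the anchors. Intervals of ratios are exact Poisson 95% intervals of the observed count. The genes named are the 7 members, genes at their anchors, genes meeting or narrowly missing the same condition, and family lists. The members and lists were chosen with earlier results of these data known, and no test was run, since the lists compared also chose the genes. The counting was tested on simulated lists. Alternatives were other windows, match distances, bins, q-value limits, list lengths, minimum counts and each library left out. Versions were Python 3.11.15, pandas 2.3.3, numpy 2.4.6, matplotlib 3.10.9 and scipy 1.17.1.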

Additional observations from a re-analysis of the deposited data

How the results depend on the processing

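The condition that chose the genes depended on the bins and thresholds of the lists. With 5 and 10 kb bins alone, 1 of the 7 genes met it, and 4 genes in all against 13. The mean number of PMSG loops in the 10 kb window was then 11.5 against 21, the median span 140 against 190 kb and the median ratio 3.70 against 3.27. At q-values of 0.01 the condition was met by 4 members and 15 genes in all. With lists of equal length it was met by 3 members and 13 genes in all. With the gene end inside the anchor it was met by 3 members and 11 genes in all. So other genes met it in place of members under these settings. With at least 3 loops in each PMSG list it was met by 0 members and 1 gene in all. PMSG loops with an hCG match were 5 with matching within 10 kb and 6 with overlapping anchors, against 11. Leaving out each library in turn gave 4 to 8 such loops, 36 to 108 genes in all and median ratios of 3.19 to 3.64. Leaving out a list relaxes the condition, so all 7 members meet it by construction then. The causes were not tested. No paired analysis was made, since the labels name no pairs of PMSG and hCG libraries and no test was run. With 2 libraries a group and 15 to 117 contacts a loop, single ratios are imprecise.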
